A study of Mus musculus with 12 samples.

Results

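TGF-beta, activin and BMP signalling was followed through 41 genes for its ligands, ligand-binding proteins, receptors, Smads and target genes. They were taken from the deposited expression table by matching the NCBI gene IDs of its 30268 rows to a list of mouse symbols, and all 41 were found. The table measures gonadal white adipose tissue, the visceral fat pad beside the testis, in 4 groups of male C57BL/6 mice with 3 biological replicates each. Mice were wild type (WT) or miR-10a knockout (KO) and were fed normal chow (NCD) or high-fat diet (HFD). Feeding began at the age of 8 weeks and lasted 16 weeks, and all mice were housed at 22 °C. Expression is given as FPKM, which corrects the number of sequenced fragments for the length of the transcript and the size of the library, from polyadenylated RNA. How the miR-10a gene was deleted, and whether in every cell, is not given in the sources used here.

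Ligands of this superfamily bind pairs of type I and type II receptor kinases, which phosphorylate Smad proteins that enter the nucleus with Smad4. TGF-betas, activins and Gdf3 act mainly through Smad2 and Smad3, and BMPs mainly through Smad1 and Smad5, whose classical targets are the Id genes. In fat, TGF-beta is known as a driver of fibrosis, BMP4 and BMP2 as signals that commit progenitors to the fat lineage, and the activin-type receptor Acvr1c (ALK7), made by adipocytes, as a brake on lipolysis that Gdf3 can engage. For the comparison below, 19 genes were placed in a TGF-beta and activin branch, 15 in a BMP branch and 7, which serve both or neither, in no branch.

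The microRNA removed in the KO mice was first set against the sequences of the genes. Mature miR-10a-5p lies on mm10 chr11:96317186-96317208, plus strand, and pairs with a transcript through its seed, bases 2 to 8, shown here in capitals:
miR-10a-5p: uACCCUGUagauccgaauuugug
In the longest annotated 3′ UTR of each gene (GENCODE M21), the site ACAGGGT was found in 3 of the 41 genes (7.32%), against 1867 of 12528 tested genes (14.9%). The genes with a site were Ltbp1, Smad3 and Smad2, and their values in the knockout comparisons are given below. Places where the microRNA could pair directly include the sites of Ltbp1 (chr17:75391032-75391038, plus strand) and Smad3 (chr9:63649130-63649137, minus strand). These 2 are shown along the transcript with the match in capitals:
Ltbp1 site: tataagtaatatgacACAGGGTtg
Smad3 site: cttggctgttttagaACAGGGTAca

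Promoters were read from RefSeq on GRCm38.p6, the assembly called mm10, as 250 bases before to 50 bases after each start, and were available for 29 of the 41 genes. The motif CAGAC, the core of the Smad3 and Smad4 binding element, was searched on both strands (GTCTG on the other) and occurred in 12 of 29 (41.4%), against 49.7% of all 27025 promoters of genes in the table. The palindrome GGCGCC, a GC-rich element known for BMP Smads, occurred in 8 of 29 (27.6%), against 12.0% of all promoters. It was found in 5 of 12 BMP branch promoters and in 2 of 13 of the TGF-beta and activin branch. The promoters compared were not matched for base composition or expression, and no difference in motif share was tested. The windows of Tgfb2, the gene called in opposite directions with diet in the genotypes, of Acvr1c, the receptor with the lowest HFD levels relative to NCD, and of Id2, a target gene, are shown 5′ to 3′ along each gene with the motifs in capitals; Acvr1c holds neither. They lie on chr1:186705940-186706239, chr2:58357709-58358008 and chr12:25096043-25096342, all on the minus strand.
Tgfb2: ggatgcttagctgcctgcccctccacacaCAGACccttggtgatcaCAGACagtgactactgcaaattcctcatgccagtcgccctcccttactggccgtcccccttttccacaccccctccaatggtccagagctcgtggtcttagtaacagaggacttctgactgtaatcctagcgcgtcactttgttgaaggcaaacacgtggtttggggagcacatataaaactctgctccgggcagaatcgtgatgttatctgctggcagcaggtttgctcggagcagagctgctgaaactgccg
Acvr1c: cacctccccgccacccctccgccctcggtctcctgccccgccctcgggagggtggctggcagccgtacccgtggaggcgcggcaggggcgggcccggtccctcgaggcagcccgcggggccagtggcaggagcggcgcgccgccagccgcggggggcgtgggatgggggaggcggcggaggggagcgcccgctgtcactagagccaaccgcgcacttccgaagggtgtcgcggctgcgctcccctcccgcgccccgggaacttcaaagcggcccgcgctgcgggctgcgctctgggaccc
Id2: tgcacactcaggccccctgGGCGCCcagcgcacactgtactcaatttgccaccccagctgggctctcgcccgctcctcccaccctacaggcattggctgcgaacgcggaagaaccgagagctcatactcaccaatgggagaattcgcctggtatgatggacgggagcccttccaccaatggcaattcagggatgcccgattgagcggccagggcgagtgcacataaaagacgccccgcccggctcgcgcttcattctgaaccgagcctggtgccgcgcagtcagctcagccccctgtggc

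The libraries are named by group and the number in the table's header: WT_NCD 1, 2 and 4, KO_NCD 2, 3 and 4, WT_HFD 1, 2 and 4, and KO_HFD 3, 5 and 8. Values per library are given in that order. The row of Mir10a itself was listed at 0.0221 to 0.425 FPKM with the genotypes overlapping, and since libraries of polyadenylated RNA do not measure mature microRNA, it does not check the labels. The 8 adipocyte markers were all present, meaning a group mean of at least 1 FPKM, with summed levels of 20007 to 20811 FPKM in WT on NCD, 19529 to 23789 in KO on NCD, 12572 to 15712 in WT on HFD and 7010 to 12159 in KO on HFD. The 8 macrophage markers summed to 371 to 486, 302 to 386, 1933 to 2771 and 2911 to 4228 FPKM in the same order. Fabp4 and Lyz2 were the largest terms of these sums. Lep went against the other adipocyte markers, with group means rising on HFD from 279 to 1003 FPKM in WT and from 274 to 773 in KO. Mertk went against the other macrophage markers, with means falling from 14.4 to 7.24 FPKM in WT and from 15.1 to 10.2 in KO. None of these 16 markers was at 0 in any group. WT_NCD 2, WT_NCD 4 and KO_NCD 2 stood apart by transcripts of ciliated epithelium, with Foxj1 at 17.4, 11.1 and 25.3 FPKM against at most 1.49 in the other 9 libraries, so calls that change without them are named beside the results. Between 36 and 38 of the 41 genes reached 1 FPKM in a library.

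**Figure D1:**
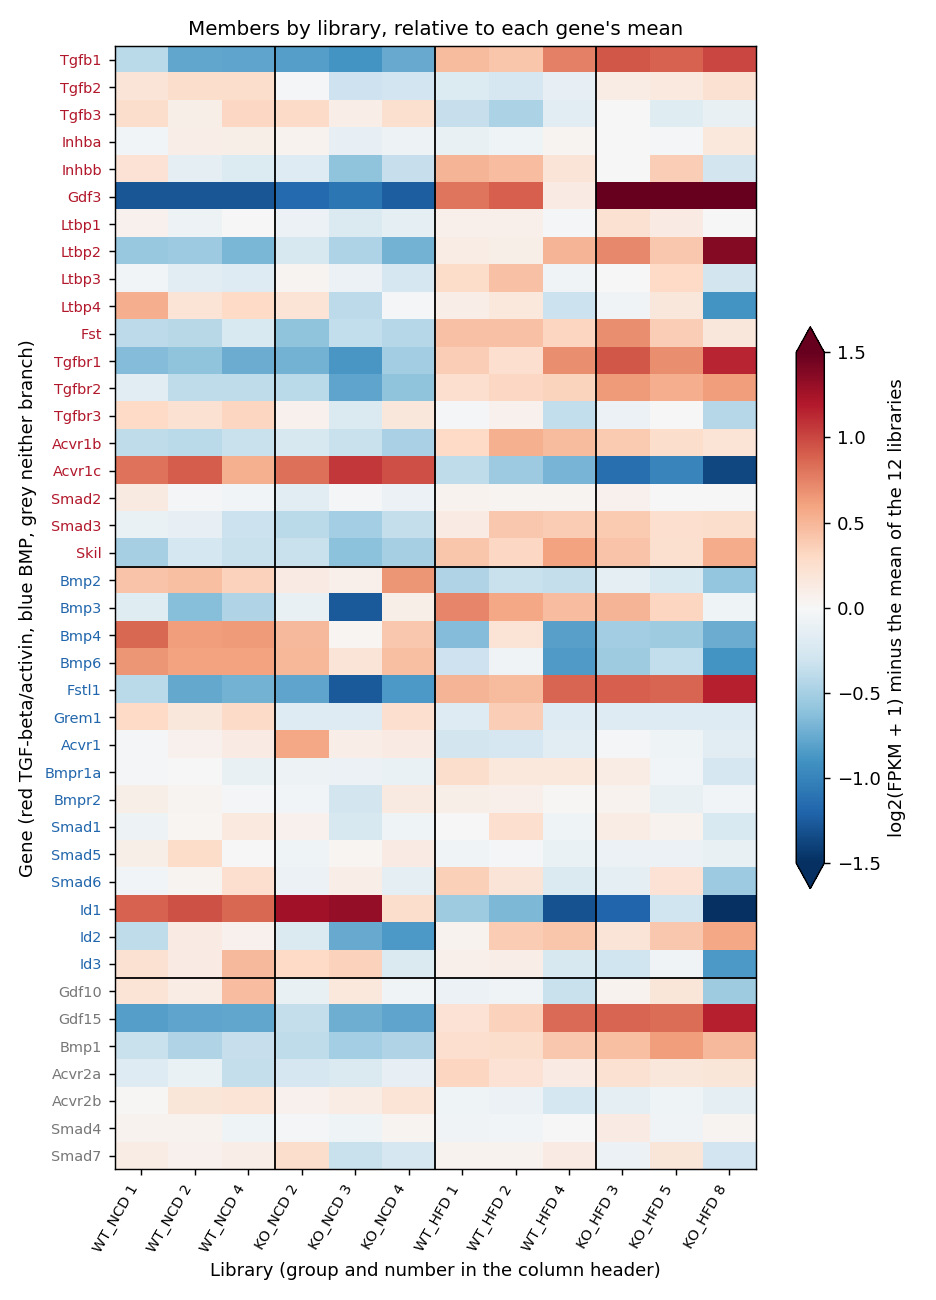
Levels of all 41 genes in the 12 libraries, as log2(FPKM + 1) minus the gene's mean over the libraries, with black lines between the 4 groups and between the TGF-beta and activin branch (red names), the BMP branch (blue) and genes in neither (grey). Tgfb1, Tgfbr1, Tgfbr2, Gdf3 and Fstl1 are red in the 6 HFD libraries, and Acvr1c, Id1, Bmp4 and Bmp6 are mostly blue there; colours are capped at 1.5 in either direction.

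In both genotypes, Tgfb1, its receptors Tgfbr1 and Tgfbr2 and the BMP-binding protein Fstl1 rose on HFD. The BMP ligands Bmp2, Bmp4 and Bmp6, the BMP target Id1 and the receptor Acvr1c fell. Differences were tested with limma on log2(FPKM + 1) across all 14340 genes that reached 1 FPKM in at least 3 libraries, with Benjamini-Hochberg adjustment and a threshold of 0.05. Of the 41 genes, 39 could be tested. In WT, 15 rose and 9 fell on HFD, while 50.8% of all tested genes were called (25.4% higher, 25.3% lower). In KO, 16 rose and 8 fell, against 60.9% of all tested genes (34.6% higher, 26.2% lower). That is 61.5% of the 39 in each genotype. Diet separated the libraries without overlap in 29 genes in WT and 26 in KO, beside 64.5% and 66.7% of all tested genes. The median difference of the 39 was 0.03 in WT and 0.10 in KO, beside -0.03 and 0.04 over all tested genes. Gdf3 and Gdf15 passed the filter on low values only through their HFD libraries and Acvr2b only through NCD libraries, so these counts and medians describe the genes that passed and are no support for a direction, and the diet differences of these 3 are given below without a test. Without the 3 ciliated libraries, WT_NCD 1 was the only WT library on NCD, and fewer of all tested genes were called in WT. Ltbp2, Smad3, Bmp3, Bmpr1a and Tgfbr3 were then no longer called in WT, and Acvr2b no longer passed the filter. Id2 became called in WT. In KO, Tgfb3, Acvr1 and Id3 were no longer called.

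The ligand Tgfb1 (chromosome 7, 25687002 to 25705077), the main TGF-beta of immune and stromal cells, was at 21.5, 16.2 and 16.1 FPKM in WT on NCD, 15.7, 14.96 and 16.5 in KO on NCD, 40.1, 38.7 and 49.0 in WT on HFD and 55.6, 53.5 and 58.3 in KO on HFD. Every HFD library lay above every NCD library, and the 3 KO libraries on HFD above the 3 WT libraries on HFD. On the log2(FPKM + 1) scale the HFD minus NCD difference was 1.21 in WT (SE 0.11, adjusted p = 1.41e-05) and 1.77 in KO (SE 0.11, adjusted p = 5.11e-07), and mean FPKM was 2.37-fold and 3.55-fold higher. Tgfb1 per unit of the macrophage marker Adgre1 was 1.89 to 2.91 on NCD and 0.277 to 0.434 on HFD. Adgre1 itself was at 5.15 to 11.4 FPKM on NCD and 92.4 to 211 on HFD, and the part of macrophages in the result was not tested. In bulk tissue, a change in the number of cells of a type and a change in RNA per cell cannot be told apart.

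Tgfb2, a paralogue with the same receptors, moved in opposite directions with diet in the 2 genotypes. It was low, at 1.76, 1.90 and 1.89 FPKM in WT on NCD, 1.35, 0.937 and 0.971 in KO on NCD, 1.08, 1.02 and 1.21 in WT on HFD and 1.59, 1.66 and 1.81 in KO on HFD. WT libraries were lower on HFD than on NCD without overlap, and KO libraries higher without overlap. The difference was -0.44 in WT (SE 0.09, adjusted p = 0.00297) and 0.37 in KO (SE 0.09, adjusted p = 0.00568). Tgfb3, at 9.91 ± 0.90 FPKM in WT on NCD (SD, n = 3), fell in both, to 6.46 ± 0.802 in WT on HFD (-0.55, adjusted p = 0.000819) and from 9.80 ± 0.738 to 7.74 ± 0.599 in KO (-0.31, adjusted p = 0.0175).

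Activin subunits were not called in any comparison. Inhba, which forms activin A, was at 0.165, 0.283 and 0.270 FPKM in WT on NCD, 0.24, 0.10 and 0.128 in KO on NCD, 0.106, 0.143 and 0.230 in WT on HFD and 0.186, 0.168 and 0.327 in KO on HFD. It stayed below the filter in every library and was not tested. Inhbb, which forms activin B, was at 13.7, 10.5 and 9.97 FPKM in WT on NCD, 10.1, 7.28 and 8.96 in KO on NCD, 17.0, 16.4 and 13.4 in WT on HFD and 11.6, 15.4 and 9.47 in KO on HFD. The diets overlapped in both genotypes. The diet difference of 0.43 in WT (95% interval 0.04 to 0.82) had an adjusted p of 0.063, and that of 0.41 in KO (0.02 to 0.80) an adjusted p of 0.0632.

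Gdf3 (chromosome 6, 122605403 to 122610087) was the ligand with the largest log2 difference of the 39 in both genotypes. It was listed at 0 in all 3 WT libraries on NCD, at 0.0835, 0.146 and 0.0304 FPKM in KO on NCD, at 3.23, 3.52 and 1.65 in WT on HFD and at 8.11, 7.60 and 7.17 in KO on HFD. The diets did not overlap, and neither did the genotypes on HFD. On the log2(FPKM + 1) scale the diet difference was 1.89 in WT and 2.99 in KO. No NCD library reached the filter of 1 FPKM and all 6 HFD libraries did, so these differences are a description with no test, and no ratio is given against levels listed at 0.

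Gdf15, a stress-induced ligand that signals through a hindbrain receptor rather than through Smads, was at 0.335, 0.370 and 0.379 FPKM in WT on NCD, 0.857, 0.430 and 0.368 in KO on NCD, 1.77, 2.02 and 3.26 in WT on HFD and 3.35, 3.26 and 4.32 in KO on HFD. All HFD libraries were above all NCD libraries, with differences of 1.27 in WT and 1.59 in KO, and like Gdf3 it passed the filter only through HFD, so no test is given. Gdf10, a ligand related to Bmp3, had 12.9 ± 1.77, 10.6 ± 1.18, 9.37 ± 1.08 and 10.02 ± 2.71 FPKM in the 4 groups and was not called for either diet comparison.

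Of the 4 BMP ligands, 3 fell on HFD in both genotypes. Bmp4 was at 7.54, 6.29 and 6.33 FPKM in WT on NCD, 5.62, 3.82 and 5.24 in KO on NCD, 1.99, 4.44 and 1.67 in WT on HFD and 2.28, 2.25 and 1.81 in KO on HFD. The diets did not overlap within either genotype, although WT_HFD 2 was higher than 1 KO library on NCD. The differences were -1.13 in WT (SE 0.23, adjusted p = 0.00203) and -0.91 in KO (SE 0.23, adjusted p = 0.00532). Bmp6, known as the inducer of hepcidin in liver, was at 9.16, 8.76 and 8.80 FPKM in WT on NCD, 8.11, 6.37 and 7.83 in KO on NCD, 4.20, 5.20 and 2.57 in WT on HFD and 3.45, 3.97 and 2.47 in KO on HFD. All 6 HFD libraries were below all 6 NCD libraries, with differences of -1.03 (adjusted p = 0.0011) and -0.98 (adjusted p = 0.000976). Bmp2 was at 2.95, 3.03 and 2.74 FPKM in WT on NCD, 2.21, 2.098 and 3.64 in KO on NCD, 1.15, 1.33 and 1.29 in WT on HFD and 1.65, 1.51 and 0.969 in KO on HFD. It too separated the diets in every library, by -0.79 in WT (adjusted p = 0.0017) and -0.61 in KO (adjusted p = 0.00609).

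Bmp3, which is known to oppose other BMPs, went the other way. It rose in WT from 4.36 ± 0.865 to 9.76 ± 1.05 FPKM (1.01, adjusted p = 0.0153), while in KO, where NCD libraries ranged widely, it was at 4.69 ± 2.41 on NCD and 7.61 ± 1.67 on HFD (0.69, adjusted p = 0.0657). Bmp3 was no longer called in WT without WT_NCD 2 or without all 3 ciliated libraries. Tgfb1 per unit of Bmp4 was 2.55 to 3.92 on NCD and 8.71 to 32.2 on HFD, with WT_HFD 2 the lowest HFD library. Endothelial markers, of which all 8 were present in each group, summed to 285 to 321 FPKM in WT on NCD, 274 to 276 in KO on NCD, 220 to 337 in WT on HFD and 127 to 262 in KO on HFD, and smooth muscle and pericyte markers, 8 present on NCD and 6 on HFD, to 241 to 301, 197 to 269, 133 to 186 and 91.9 to 156. Mesothelial markers, 8 present in each group but WT on HFD, which had 7, summed to 81.1 to 123, 41.4 to 136, 20.9 to 49.5 and 41.9 to 71.5 FPKM. Between diets, the smooth muscle sums did not overlap in either genotype, the mesothelial sums did not overlap in WT alone, and the endothelial sums did not overlap in KO alone. In KO, Vwf went against the other endothelial markers, with means rising from 4.73 FPKM on NCD to 8.68 on HFD. The part of these cell types in the lower BMP ligand levels was not tested.

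**Figure D2:**
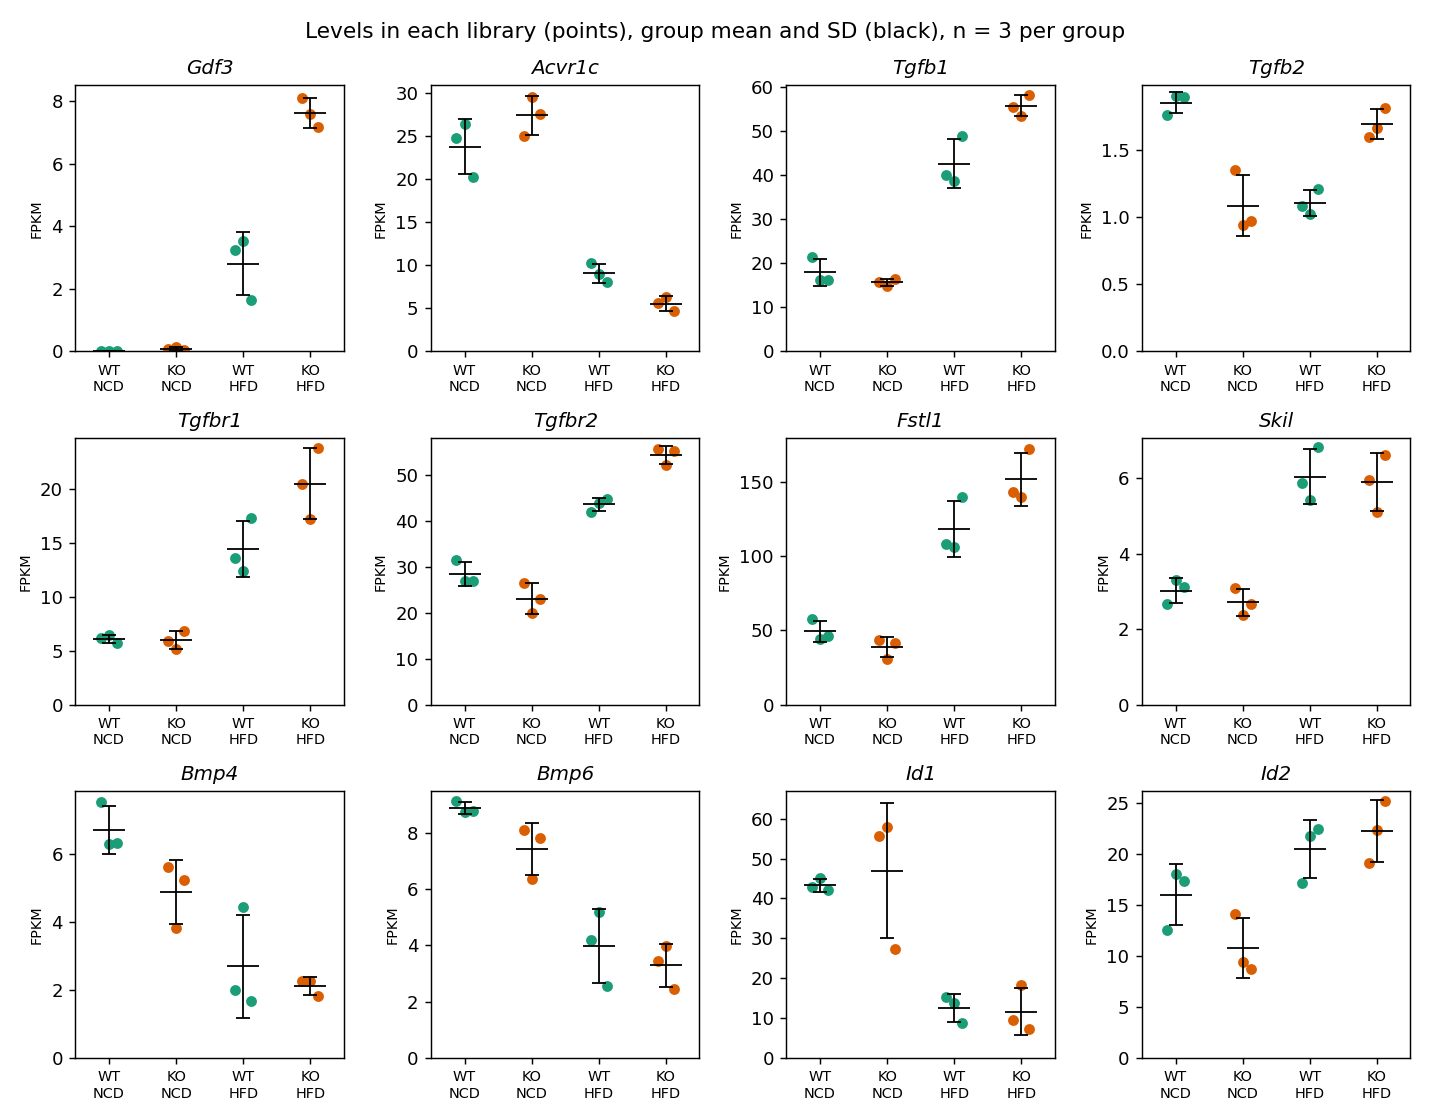
FPKM of 12 genes in each library (points, WT green and KO orange), with group mean and SD in black, n = 3 per group. Gdf3 is at or near 0 on NCD and highest in KO on HFD, Acvr1c falls from 20.2 to 29.5 FPKM on NCD to 4.65 to 10.2 on HFD, and Tgfb2 is high in WT on NCD and in KO on HFD.

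Among proteins that hold TGF-beta latent or trap ligands outside the cell, those that were called were higher on HFD. Ltbp2, a matrix protein of the latent TGF-beta binding family, rose from 2.33 ± 0.176 to 5.002 ± 1.02 FPKM in WT (0.84, adjusted p = 0.00874) and from 2.67 ± 0.588 to 8.35 ± 3.36 in KO (1.3, adjusted p = 0.000428). Ltbp1, which binds latent TGF-beta in the matrix, was at 7.31 ± 0.406 and 7.59 ± 0.386 in WT and rose from 6.51 ± 0.328 to 8.03 ± 0.719 in KO (0.26, adjusted p = 0.00916). Ltbp3 and Ltbp4 were more abundant, at 51.2 to 84.7 and 24.7 to 68.8 FPKM over all libraries, and neither was called for diet.

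Fst, the activin trap follistatin, was at 3.78, 3.71 and 4.34 FPKM in WT on NCD, 3.13, 3.86 and 3.65 in KO on NCD, 7.46, 7.51 and 6.83 in WT on HFD and 9.13, 7.07 and 6.02 in KO on HFD. Every HFD library was above every NCD library, with differences of 0.74 in WT (adjusted p = 0.000528) and 0.87 in KO (adjusted p = 0.000111). Fstl1, a secreted relative reported to bind BMP4, was at 57.5, 44.4 and 46.2 FPKM in WT on NCD, 43.7, 31.1 and 41.5 in KO on NCD, 108, 106 and 140 in WT on HFD and 143, 140 and 173 in KO on HFD. It was the most abundant of the 41 in every HFD library and separated the diets, by 1.24 in WT (adjusted p = 9.44e-05) and 1.95 in KO (adjusted p = 2.18e-06). Bmp1, a protease that processes procollagen and releases bound ligands, rose from 16.2 ± 0.763 to 26.7 ± 1.73 in WT (0.69, adjusted p = 2.17e-05) and from 15.4 ± 0.735 to 31.2 ± 2.099 in KO (0.97, adjusted p = 1.04e-06). Grem1, a BMP antagonist, was listed at 0.405, 0.284 and 0.395 FPKM in WT on NCD, at 0.364 in KO_NCD 4, at 0.484 in WT_HFD 2 and at 0 in the other 7 libraries, and was not tested. Fibroblast and progenitor markers, all 8 present in each group, summed to 995 to 1058 FPKM in WT on NCD, 857 to 970 in KO on NCD, 1283 to 1479 in WT on HFD and 1543 to 1624 in KO on HFD. Dcn was the largest term of these sums. In WT, Dcn and Dpp4 went against the other markers, with means falling on HFD from 657 to 641 and from 7.24 to 4.20 FPKM. The part of these cells in the differences was not tested.

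The TGF-beta receptors Tgfbr1 and Tgfbr2 rose and Acvr1c, the activin-type receptor of adipocytes, fell. Tgfbr1 (ALK5), the type I receptor, was at 6.19, 6.42 and 5.73 FPKM in WT on NCD, 5.91, 5.16 and 6.87 in KO on NCD, 13.6, 12.4 and 17.3 in WT on HFD and 20.5, 17.2 and 23.8 in KO on HFD. All HFD libraries exceeded all NCD libraries, by 1.11 in WT (SE 0.14, adjusted p = 9.61e-05) and 1.62 in KO (SE 0.14, adjusted p = 3.59e-06). Tgfbr2, its type II partner, rose from 28.4 ± 2.68 to 43.6 ± 1.39 in WT (0.60, adjusted p = 0.000453) and from 23.1 ± 3.31 to 54.3 ± 1.90 in KO (1.21, adjusted p = 2.1e-06). Tgfbr3, the co-receptor betaglycan, was at 30.6 ± 1.10 in WT on NCD and 23.2 ± 3.63 on HFD (-0.39, adjusted p = 0.0362), and at 25.2 ± 3.48 and 22.3 ± 3.44 in KO (-0.17, adjusted p = 0.3).

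Acvr1c (chromosome 2, 58267453 to 58357896) was at 24.8, 26.3 and 20.2 FPKM in WT on NCD, 25.0, 29.5 and 27.6 in KO on NCD, 10.2, 8.997 and 8.02 in WT on HFD and 5.64, 6.36 and 4.65 in KO on HFD. The NCD genotypes overlapped, the diets did not, and the KO libraries on HFD were all below the WT libraries on HFD. The difference was -1.29 in WT (SE 0.13, adjusted p = 1.62e-05) and -2.12 in KO (SE 0.13, adjusted p = 2.98e-07), and mean FPKM on NCD was 2.62-fold and 4.93-fold that on HFD. Acvr1b (ALK4), a type I receptor that also binds activins, moved the other way, from 7.53 ± 0.233 to 14.0 ± 1.25 in WT (0.81, adjusted p = 2.46e-05) and from 7.66 ± 0.735 to 12.5 ± 0.897 in KO (0.65, adjusted p = 6.52e-05). Acvr1c per unit of Acvr1b was thus 2.59 to 4.01 on NCD and 0.395 to 0.809 on HFD, so the order of the 2 receptors was reversed in all 6 HFD libraries. Acvr1c relative to the adipocyte gene Adipoq was 1.08%, 1.36% and 1.01% in WT on NCD, 1.12%, 1.17% and 1.45% in KO on NCD, 0.992%, 0.810% and 0.973% in WT on HFD and 0.867%, 0.811% and 1.24% in KO on HFD. The diets did not overlap in WT, and in KO they overlapped through KO_HFD 8, while the other 2 KO libraries on HFD lay below every NCD library.

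Among the type II activin receptors, which BMPs also use, Acvr2a rose from 4.07 ± 0.454 to 5.85 ± 0.491 in WT (0.44, adjusted p = 0.00119) and from 4.11 ± 0.246 to 5.71 ± 0.149 in KO (0.39, adjusted p = 0.00156). Acvr2b was close to the filter, which it passed only through NCD libraries, at 1.16 ± 0.149 on NCD and 0.777 ± 0.132 on HFD in WT (a difference of -0.28) and 1.14 ± 0.104 and 0.803 ± 0.0592 in KO (-0.24). Bmpr1a (ALK3), a type I BMP receptor, was at 17.6, 17.8 and 16.3 FPKM in WT on NCD, 16.8, 16.6 and 16.5 in KO on NCD, 21.4, 19.9 and 19.9 in WT on HFD and 19.3, 17.2 and 14.8 in KO on HFD. It rose a little in WT (0.23, adjusted p = 0.0369), where the diets did not overlap, and was at 0.03 in KO (95% interval -0.15 to 0.21, adjusted p = 0.775). Acvr1 (ALK2) fell in KO from 12.5 ± 2.64 to 9.48 ± 0.531 (-0.35, adjusted p = 0.0202), and was at 10.5 ± 0.621 and 8.46 ± 0.426 in WT (-0.28, adjusted p = 0.0599). Bmpr2, the type II BMP receptor, was at 7.86 to 10.8 FPKM in all libraries and was not called.

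Of the Smads, the carriers of the signal to the nucleus, Smad3 was the only one called for diet. It rose from 6.09 ± 0.567 to 8.91 ± 1.03 in WT (0.48, adjusted p = 0.00134) and from 4.996 ± 0.322 to 8.90 ± 0.513 in KO (0.72, adjusted p = 5.22e-05). Smad2, its partner, was at 4.85 to 6.16 FPKM across the 12 libraries, the shared Smad4 at 8.89 to 10.3, and the BMP Smads Smad1 and Smad5 at 7.22 to 10.6 and 9.65 to 12.8. The inhibitory Smad6 was at 2.54 to 5.64 and Smad7 at 1.95 to 3.46, and none of these 6 was called in WT or KO.

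Of the target genes, Skil rose and Id1 fell on HFD in both genotypes. Skil, a repressor that TGF-beta induces as feedback, was at 2.66, 3.301 and 3.11 FPKM in WT on NCD, 3.10, 2.37 and 2.66 in KO on NCD, 5.88, 5.42 and 6.84 in WT on HFD and 5.96, 5.10 and 6.63 in KO on HFD. All HFD libraries were above all NCD libraries, by 0.81 in WT (adjusted p = 0.000192) and 0.89 in KO (adjusted p = 5.63e-05). Id1, an inhibitor of helix-loop-helix factors and a classical BMP target, was at 42.8, 45.0 and 42.0 FPKM in WT on NCD, 55.7, 57.9 and 27.4 in KO on NCD, 15.3, 13.9 and 8.62 in WT on HFD and 9.39, 18.2 and 7.16 in KO on HFD. It separated the diets in both genotypes, by -1.74 in WT (SE 0.34, adjusted p = 0.00173) and -1.95 in KO (SE 0.34, adjusted p = 0.000554), with mean FPKM on NCD 3.44-fold and 4.06-fold that on HFD. Id2 did not follow Id1. It was at 12.6, 18.1 and 17.4 FPKM in WT on NCD, 14.2, 9.43 and 8.69 in KO on NCD, 17.2, 21.8 and 22.5 in WT on HFD and 19.2, 22.4 and 25.3 in KO on HFD. KO libraries were higher on HFD without overlap (1.00, adjusted p = 0.000861), and WT libraries overlapped (0.35, adjusted p = 0.145). With the ciliated libraries removed, and so with WT_NCD 1 as the lone WT library on chow, Id2 was also called in WT (0.66, adjusted p = 0.0317). Id3 was at 93.1, 86.4 and 111 FPKM in WT on NCD, 97.6, 101 and 68.1 in KO on NCD, 83.3, 85.2 and 66.9 in WT on HFD and 64.0, 76.4 and 43.3 in KO on HFD. It was lower on HFD in KO (-0.55, adjusted p = 0.0425) although the KO libraries overlapped, and not called in WT (-0.30, adjusted p = 0.251).

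The calls were also counted by branch. Of the 18 tested genes of the TGF-beta and activin branch, 9 rose and 4 fell in WT and 11 rose and 2 fell in KO, with median differences of 0.45 and 0.53. Of the 14 tested BMP branch genes, 3 rose and 4 fell in WT and 2 rose and 6 fell in KO, with medians of -0.08 and -0.12. The 7 genes in neither branch gave 3 higher and 1 lower in WT, and 3 higher in KO. Of all tested genes 25.4% were higher and 25.3% lower in WT and 34.6% and 26.2% in KO, with medians of -0.03 and 0.04. The medians of the branches were 0.53 apart in WT and 0.65 in KO, and 0.48 to 0.65 and 0.59 to 0.76 apart with a library left out. These are descriptions, since the genes were chosen with earlier results of these data known, and the difference between the branches was not tested. The counts include Gdf3 in the TGF-beta and activin branch and Gdf15 and Acvr2b in neither branch, which passed the filter through 1 diet only. Fstl1 and Bmp3 were the BMP branch genes with rises over 1 in WT, and both encode proteins known to oppose BMPs. Bmp3 was not called in KO, and its call in WT was lost without WT_NCD 2. The 3 other BMP ligands fell, and so did Chrd and Chrdl1, BMP antagonists among the further pathway genes given below.

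The diet calls of the genotypes were set against each other, gene by gene. Of 24 called in WT and 24 in KO, 13 were higher in both and 6 lower in both, which is 79.2% of each list. Over all tested genes, 44% were called the same way in both genotypes, which is 86.7% of the WT list and 72.3% of the KO list. Tgfb2 was called in opposite directions, beside 12 of all 14340 tested genes. Called in WT alone were Acvr2b, Bmp3, Bmpr1a and Tgfbr3, and in KO alone Acvr1, Id2, Id3 and Ltbp1, none of which was called for the interaction. The other 11 tested genes were called in neither: Bmpr2, Gdf10, Inhbb, Ltbp3, Ltbp4, Smad1, Smad2, Smad4, Smad5, Smad6 and Smad7. Gdf3 and Gdf15 were among the genes counted as higher in both genotypes. Like Acvr2b, they passed the filter through 1 diet only, so these calls are no support for a direction.

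**Figure D3:**
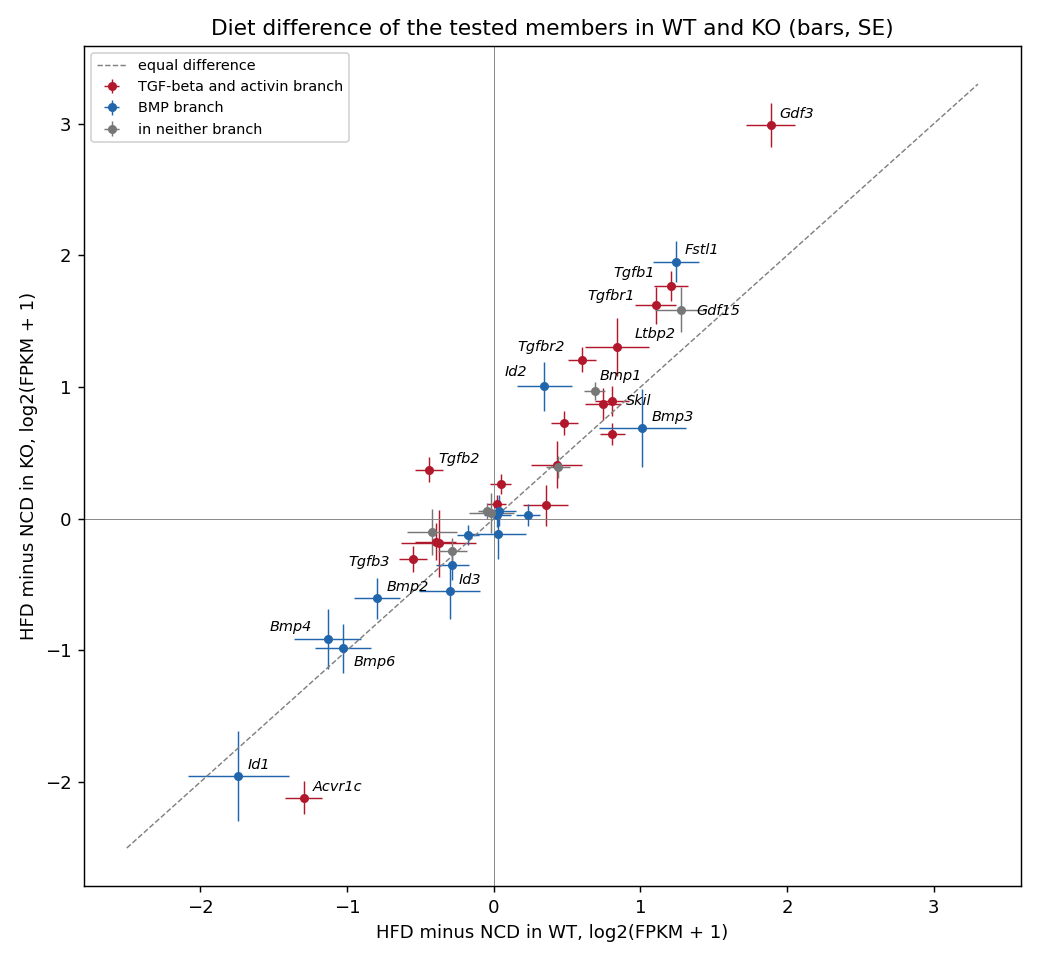
Difference between HFD and NCD on the log2(FPKM + 1) scale for the 39 tested genes, in WT on the horizontal and in KO on the vertical axis, with bars of 1 SE and the dashed line marking equal differences. Gdf3 lies at 1.89 and 2.99, Acvr1c at -1.29 and -2.12, and Tgfb2, at -0.44 and 0.37, is at the upper left.

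The genotypes were then compared in chow-fed mice. None of the 39 genes was called between KO and WT on NCD by limma, beside 0.0488% of all tested genes. Unadjusted p was under 0.05 in 4 of them, all with lower KO levels, beside 5.1% of all tested genes. The differences were -0.46 for Tgfb2 (adjusted p = 0.184), -0.29 for Tgfbr2 (adjusted p = 0.695), -0.24 for Smad3 (adjusted p = 0.858) and -0.54 for Id2 (adjusted p = 0.741). The genotypes did not overlap in 10 of the 39 genes (25.6%), 1 higher and 9 lower in KO. Of all tested genes, 9.45% were separated (1.49% higher, 7.96% lower). Among the genes with a miR-10a-5p site, Smad3 was at -0.24 as given above, Ltbp1 was at -0.15 (95% interval -0.31 to 0.02) and Smad2 at -0.11 (-0.25 to 0.03).

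On HFD, Gdf3 was the only gene of the 39 called between genotypes, where 0.802% of all tested genes were called. Its mean was 2.80 ± 1.01 FPKM in the WT and 7.62 ± 0.473 in the KO libraries (SD, n = 3), a ratio of 2.73, and the difference 1.22 on the log2(FPKM + 1) scale (SE 0.17, adjusted p = 0.0154). The call was lost without KO_HFD 3, without KO_HFD 8 and without the 3 ciliated libraries, with adjusted p at most 0.0883. Acvr1c, its receptor, was at 9.07 ± 1.09 in WT and 5.55 ± 0.859 in KO (-0.62, 95% interval -0.90 to -0.35, adjusted p = 0.0549), just outside the threshold. In 12 of the 39 the unadjusted p was under 0.05, beside 24.3% of all tested genes. Of the 39, 8 were separated between genotypes, 6 higher and 2 lower in KO, beside 30.7% of all tested genes (19% higher, 11.7% lower). Tgfb1, Tgfb2, Tgfbr2, Fstl1 and Bmp1 were among the 6, at 0.39, 0.35, 0.31, 0.37 and 0.22 (adjusted p = 0.0914, 0.0779, 0.0995, 0.187 and 0.109), and Bmpr1a was lower at -0.25 (adjusted p = 0.113). The differences of the genes with a miR-10a-5p site were 0.00 for Smad3 (-0.20 to 0.20), 0.07 for Ltbp1 (-0.09 to 0.23) and -0.02 for Smad2 (-0.16 to 0.13).

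**Figure D4:**
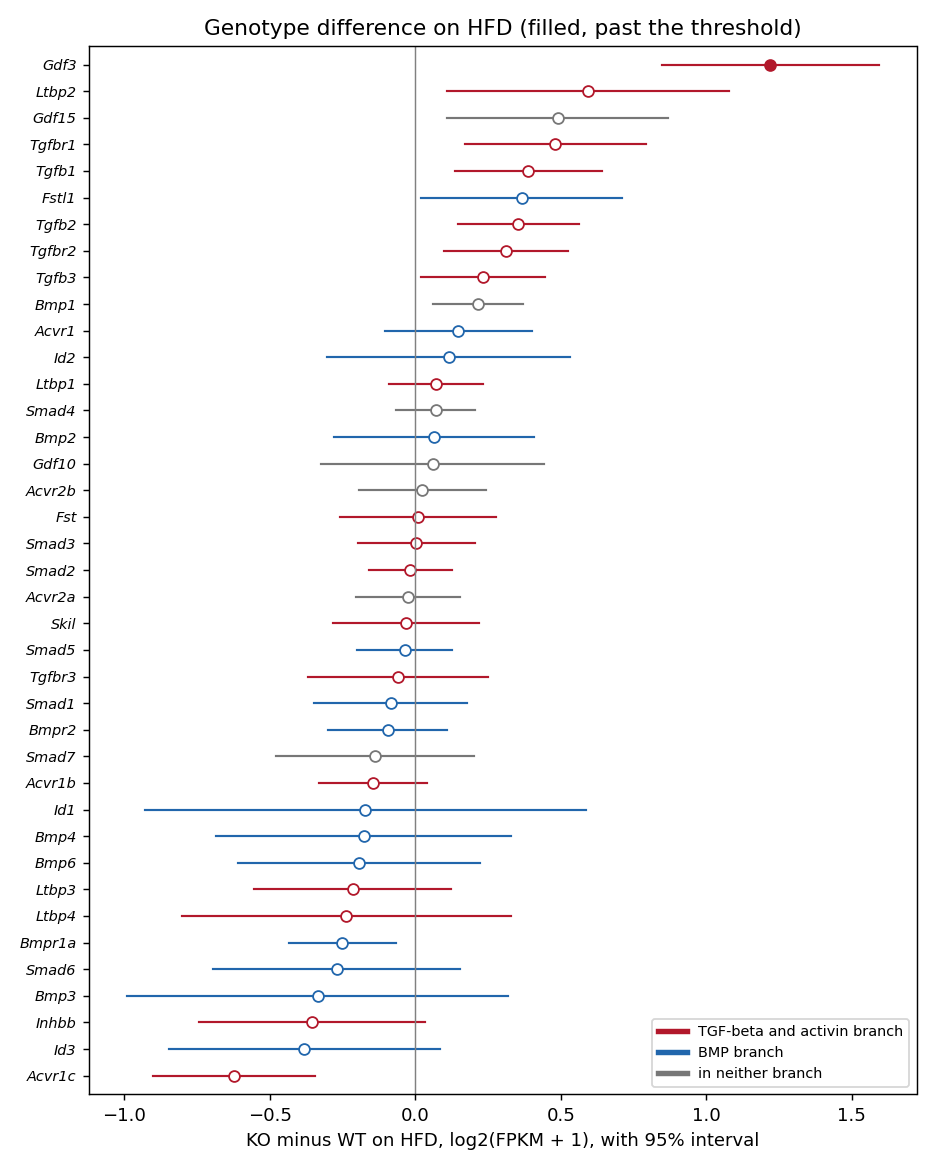
KO minus WT difference on HFD, on the log2(FPKM + 1) scale, for the 39 tested genes in order of size, with 95% intervals from the limma fit, coloured by branch; the filled point is past the threshold. Gdf3 at 1.22 is highest and Acvr1c at -0.62 lowest.

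The ligand and receptor pair moved apart within each HFD library. Gdf3 per unit of Acvr1c was 0.316, 0.391 and 0.205 in WT_HFD 1, 2 and 4, and 1.44, 1.19 and 1.54 in KO_HFD 3, 5 and 8. The genotypes did not overlap on HFD. This follows from Gdf3 being higher and Acvr1c lower in every KO library on HFD, and it adds no evidence to those values. On NCD the ratio was at most 0.00496. Adgre1 was also higher in KO on HFD, at 143 to 211 FPKM against 92.4 to 127, and Gdf3 per unit of Adgre1 was 0.0349, 0.0373 and 0.0130 in WT and 0.0515, 0.0530 and 0.0340 in KO, where 1 KO library fell below 2 WT libraries. Within each genotype on HFD, the library with the highest macrophage sum (WT_HFD 4 at 2771 and KO_HFD 8 at 4228 FPKM) had the lowest Gdf3 of its group, at 1.65 and 7.17, and the highest Tgfb1, Tgfbr1, Gdf15 and Fstl1. Relative to Adipoq, the Acvr1c levels given above overlapped between genotypes on HFD. The part of macrophage and adipocyte content in the genotype difference was not tested.

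**Figure D5:**
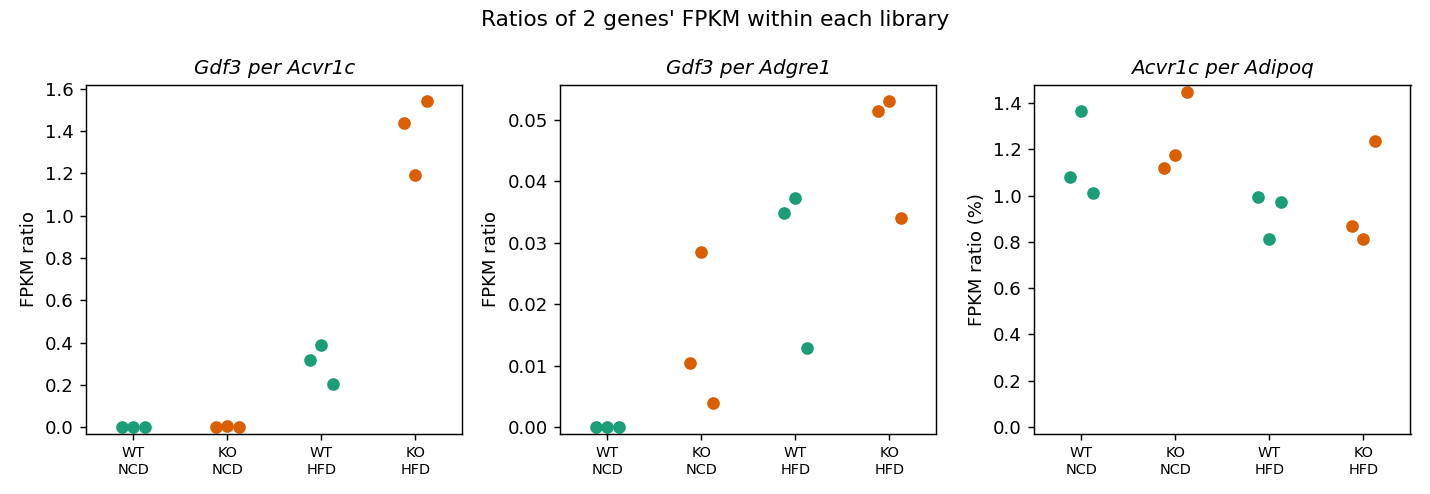
Ratios of FPKM within each library (points, WT green and KO orange) for Gdf3 per Acvr1c, Gdf3 per the macrophage gene Adgre1 and Acvr1c per the adipocyte gene Adipoq in percent. On HFD the genotypes separate in the first panel (0.205 to 0.391 against 1.19 to 1.54), as they do for each of its 2 genes alone, and overlap in the other panels.

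Whether diet acted differently in KO than in WT was tested as an interaction, and it was called for Tgfb2 alone (0.81, SE 0.13, adjusted p = 0.0449), beside 0.272% of all tested genes. This call was lost in 16 of 19 alternatives, among them the fit without the 3 ciliated libraries and 11 of the 12 that leave out 1 library, all but that without KO_NCD 2, with adjusted p over the alternatives of 0.0133 to 0.163. The diet difference of Acvr1c differed by -0.83 (95% interval -1.22 to -0.43, adjusted p = 0.102) and did not pass. That of Gdf3 was 1.10 larger in KO. Since Gdf3 passed the filter only through HFD libraries, this value is a description with no test. Tgfb1 and Tgfbr2 were at 0.56 (adjusted p = 0.152) and 0.60 (adjusted p = 0.11), and 9 of the 39 had an unadjusted p under 0.05, beside 18.5% of all tested genes. Tgfb2 overlaps other annotated genes, and so do others of the 41 genes, among them Acvr1c, Bmp4 and Bmp6. Strand use in the counting is not given in the sources used here, so reads of the overlapping genes cannot be told apart from their own.

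Further genes of the pathway, 60 in a second list, were found for 59 symbols, and 38 of them were tested. In WT 14 rose and 14 fell, and in KO 17 rose and 8 fell, against the shares of all tested genes given above, and their medians were 0.05 and 0.17. None was called between genotypes on either diet or for the interaction, where 9, 5 and 13 had an unadjusted p under 0.05, beside the 5.1%, 24.3% and 18.5% of all tested genes. The 4 highest in WT were Nrros, which holds latent TGF-beta on myeloid cells (1.76), the TGF-beta feedback gene Pmepa1 (1.47), the Smad corepressor Tgif1 (1.37) and the ligand Mstn, myostatin (1.2). Mstn was listed at 0 to 0.031 FPKM on NCD and at 0.741 to 1.51 on HFD in both genotypes, so it passed the filter through HFD libraries. Among the lowest were the BMP antagonists Chrdl1 (-1.34) and Chrd (-0.99) and the matricellular gene Ccn2 (-1.43). In KO, Nrros (2.27), Tgif1 (1.94) and Junb, a transcription factor gene that TGF-beta induces (1.67), were among the highest, and among the lowest were Chrdl1 (-1.81), Amhr2, the receptor of anti-Müllerian hormone (-1.17), and Chrd (-1.08). Amhr2 was at 1.46 to 2.31 FPKM on NCD and at 0.239 to 0.538 on HFD, so it passed the filter only through NCD libraries. The diet differences of Mstn and Amhr2 are therefore descriptions and no support for a direction. Secreted BMP antagonists were found on both sides, with Fstl1 among the rising genes and Chrdl1 and Chrd among the falling ones. Ccn2, called in WT, was at 0.17 in KO (adjusted p = 0.721), with KO libraries on NCD already at 5.24 to 14.6 FPKM against 18.4 to 21.6 in WT.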

How the data were processed

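FPKM per gene were deposited by the authors for 12 libraries, per the file headers, with no counts, so absolute depth is unknown. Among the lowest values, the common step between libraries gave a log2 depth relative to WT_NCD 1 of -0.08 to 0.22 in 10 of the other 11, and no clear value for KO_HFD 8. Per the labels' protocols, tissue RNA came from TRIzol and a TruSeq Stranded mRNA LT kit. Without the role of each, mm10, HISAT2 2.1.0, StringTie 1.3.4d, DESeq2, Trimmomatic and bcl2fastq 2.20.0 are named in the submitters' processing notes, and strand use in counting is not given in the sources used here; 21 of the 41 genes overlap another annotated gene. Columns were assigned to groups by their headers, and no 2 columns were identical. Of 30268 IDs, 30196 matched a symbol in RefSeq.

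Values were tested as log2(FPKM + 1), which understates changes of low genes, with limma 3.58.1 in R 4.3.3, using 4 group means, 8 residual degrees of freedom, a mean-variance trend and two-sided Benjamini-Hochberg adjusted p-values over 14340 genes reaching 1 FPKM in at least 3 libraries. A count-based test had been planned had the table held counts. The code was tested on simulated data. Replicates are biological, per the series design. Values per library are given for 12 listed genes (ligands, inhibitors, receptors and targets of each branch) and for the 5 highest and 5 lowest called in a comparison; of the second pathway list, the 4 highest and 4 lowest called are named, except a few that are not reported here. The 41 genes, the lists and these rules were chosen with earlier results of these data known. Alternatives were another pseudocount, filter or scaling, fits of only the groups compared, each library left out, and the 3 ciliated libraries left out. Marker lists held 72 genes, of which 71 were found.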

Additional observations from a re-analysis of the deposited data

Results flagged for a closer look

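Tgfb2 was the gene whose response to diet differed between the genotypes by the test of the difference itself: the HFD minus NCD difference in KO was 0.81 above that in WT on the log2(FPKM + 1) scale (limma, SE 0.13, adjusted p = 0.0449). All 3 WT libraries were lower on HFD (1.02 to 1.21 FPKM) than on NCD (1.76 to 1.90), and all 3 KO libraries higher (1.59 to 1.81 against 0.937 to 1.35). The level is close to the 1 FPKM filter, and the difference no longer passed the threshold in 16 of 19 alternatives, whose adjusted p ranged from 0.0133 to 0.163.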

How the results depend on the processing

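The counts of genes called for diet kept within 1.5 times under every alternative run, at 19 to 27 in WT and 21 to 25 in KO, and 0 stayed 0 between genotypes on NCD. Of 1095 single-gene values under alternatives, 1023 kept their direction and call, 68 lost the call, 4 gained one and 0 reversed. These values cover 55 results, namely those called in the main fit and all of Gdf3 and Acvr1c. Diet calls that other genes gained are therefore not among them. Quantile normalization, for example, added Acvr1, Gdf10 and Smad5 in WT and Smad5 in KO. Gdf3, the 1 gene called between genotypes on HFD, lost its call with a pseudocount of 0.1 and with only the groups compared. It also lost the call without the ciliated libraries. Quantile normalization added Acvr1c, a count of 2, where 0.788% of all tested genes were called. With a library left out the count ranged from 0 to 5. It was 5 without WT_HFD 4, which added Tgfb1, Tgfbr1, Acvr1c and Gdf15. In that fit 6.66% of all tested genes were called, against 0.802% with all libraries. The 1 called interaction, Tgfb2, lost its call with no filter, quantile normalization, median centring, rescaling without mitochondrial genes and without the ciliated libraries. The number of called interactions ranged from 0 to 2 with a library left out. It was 2 without KO_NCD 2, where 1.29% of all tested genes were called, against 0.272% with all libraries. The distance between the branch medians was 0.58 in WT and 0.80 in KO with a pseudocount of 0.1, 0.61 and 0.53 with no filter, 0.41 and 0.76 without the ciliated libraries, 0.61 and 0.53 with Gdf3 and Fstl1 in neither branch, and 0.48 to 0.65 and 0.59 to 0.76 with a library left out. With the ciliated libraries removed, WT on NCD holds 1 library, whose spread is assumed like that of the other groups. Quantile normalization and median centring moved the median KO diet difference of all genes by -0.11 and -0.15 and the KO split of 16 higher and 8 lower to 15 and 9 and to 15 and 10. The cause of these shifts was not tested. Diet calls of Bmpr1a and Tgfbr3 in WT and of Id3 in KO were lost in 10, 8 and 10 alternatives. No paired analysis was possible because the animal numbers of the columns could not be tied to the replicate numbers in the sample titles. Unknown depth limits what can be said of Inhba, Grem1 and other genes under 1 FPKM.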
